A study of Mus musculus with 15 samples.

Results

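Kit ligand and 9 genes of the pigment cell were followed in total RNA of mouse cornea. The 10 genes were Kitl, Kit, Mitf, Dct, Tyrp1, Tyr, Pmel, Mlana, Rab32 and Slc45a2, taken by name out of 55357 annotated genes. Kitl and Rab32 were selected on differences in CPM (counts per 1e6) between genotypes and ages seen earlier in the same libraries, so their differences between groups are given as a description without a test. The other genes were listed because they mark melanocytes and pigmented tissue that adjoins the cornea, such as limbus and uvea.

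The study compared corneas of OPA1+/+ mice and of OPA1+/- mice, which carry 1 disrupted copy of the gene for the mitochondrial fusion GTPase Opa1, at 3 and 6 months of age. There were 4 OPA1+/+ and 4 OPA1+/- libraries at 3 months, and 3 OPA1+/+ and 4 OPA1+/- libraries at 6 months. The labels name neither a strain, the sex, the litter, the kind of Opa1 allele, nor how many animals gave a library. The spread that the p-values measure is thus between libraries and may be technical.

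Kit ligand is a membrane-bound growth factor that is made by epithelial and stromal cells and can be shed from them. It binds the receptor tyrosine kinase Kit, which melanocytes, mast cells and germ cells depend on, and Kit signalling in melanocytes acts on the transcription factor Mitf. Mitf drives the genes of the pigment-forming organelle, the melanosome: the enzymes Tyr, Tyrp1 and Dct, the fibril protein Pmel, the melanosomal protein Mlana and the transporter Slc45a2. Rab32 is a small GTPase that, with its relative Rab38, carries pigment enzymes to the melanosome, and it is also found on mitochondria and in cells without pigment. The clear cornea normally holds few pigment cells, whereas limbus, iris and ciliary body hold many.

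The promoters are shown first because they separate the pigment enzymes, which carry a known binding motif of Mitf, from Kitl and Rab32. RefSeq promoter windows (GRCm38.p6) were found for 7 of the 10 genes and not for Pmel, Mlana and Slc45a2. The M-box core TCATGTG, searched on both strands in the 250 bases before each start, was present in the windows of Dct, Tyrp1 and Tyr, and in 3.25% of all 32851 windows of that length. The windows below are read 5′ to 3′ along the gene, with the M-box core in capitals. That of Dct is chr14:118052362-118052421 on the minus strand, with the core 151 bases before the start. A further match in Dct lay 232 bases before the start. The Tyrp1 window is chr4:80834142-80834201 on the plus strand, with the core 47 bases before the start. The Tyr window is chr7:87493513-87493572 on the minus strand, with the core 22 bases before the start.
Dct: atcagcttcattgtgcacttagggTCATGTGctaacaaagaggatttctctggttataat
Tyrp1: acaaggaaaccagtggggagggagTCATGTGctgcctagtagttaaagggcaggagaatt
Tyr: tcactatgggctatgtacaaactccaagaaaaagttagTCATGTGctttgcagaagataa

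The windows of Kitl, Kit, Mitf and Rab32 held neither that core, nor the shorter E-box CATGTG that lies within it (12.3% of all windows), nor the E-box CACGTG (6.02%). The last 120 bases before the start are shown for Kitl and Rab32, the members selected on their differences between groups. The Kitl stretch is chr10:100015701-100015820 on the plus strand, with 70.8% G and C and 13 CpG dinucleotides. It holds a TATAAA, in capitals, 25 bases before the start, a sequence found on the gene's strand in 7.59% of all windows. The Rab32 stretch is chr10:10558208-10558327 on the minus strand, with 69.2% G and C and 4 CpG dinucleotides, and none of the motifs searched.
Kitl: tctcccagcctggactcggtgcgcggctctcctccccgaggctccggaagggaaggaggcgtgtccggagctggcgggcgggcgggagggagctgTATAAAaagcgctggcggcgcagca
Rab32: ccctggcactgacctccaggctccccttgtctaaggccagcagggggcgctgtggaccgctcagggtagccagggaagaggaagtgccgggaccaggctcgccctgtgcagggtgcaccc
These matches describe the letters of the windows and not whether a factor binds there.

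Libraries held 11673240 to 18194946 counts, and the limit that a count of 0 allows, set at 3 counts, was 0.165 to 0.257 raw CPM. Opa1 measured 45.5 to 57.8 CPM across the 8 OPA1+/- libraries, against 65.2 to 73.4 CPM across the 7 OPA1+/+ libraries, so the groups did not overlap and no library went against its label. The summed level of 7 corneal epithelium markers was 56640 to 68650 CPM, as the tissue label calls for. Markers of the retina summed to 158.9 CPM in OPA1+/- replicate 4 at 3 months and 150.2 CPM in OPA1+/+ replicate 1 at 6 months, against 11.97 to 24.95 CPM in the other libraries. Lens markers summed to 108.8 CPM in the same OPA1+/- replicate 4, against 4.592 to 30.62 CPM elsewhere. CPM values of genes and lists were adjusted by trimmed-mean (TMM) factors, and RPKM values are these CPM per kilobase of exon.

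The 10 genes spanned a wide range of levels per length. Kit, the receptor, stood far above the rest at 34.25 to 45.82 RPKM, and its lowest library lay above the highest library of any other of the 10 genes. Rab32 at 5.12 to 9.18 RPKM and Kitl at 5.70 to 8.03 RPKM came next, and their ranges overlapped. Pmel (0.756 to 1.41 RPKM), Dct (0.503 to 0.936 RPKM) and Mitf (0.392 to 0.632 RPKM) formed a lower tier, separate from Kitl and overlapping from each neighbour to the next. Tyrp1 followed at 0.0508 to 0.411 RPKM, overlapping Mitf. Mlana reached 0.222 RPKM, Slc45a2 0.101 RPKM and Tyr 0.0817 RPKM, each with some libraries at 0, and these 3 could not be ordered.

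**Figure D1:**
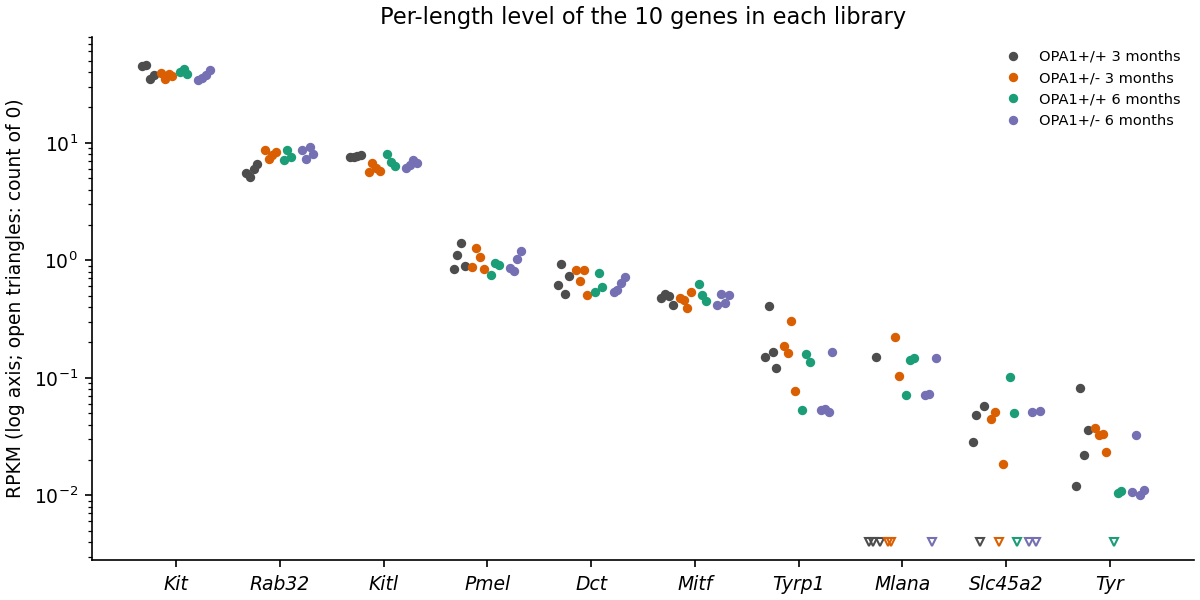
Level of each of the 10 genes in each of the 15 libraries, as RPKM on a log axis, coloured by genotype and age, with open triangles for a count of 0. Kit lies highest, Rab32 and Kitl share a lower tier, Pmel, Dct and Mitf one below it, and the remaining 4 genes rest on a few reads.

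The receptor was thus more abundant per length than its ligand in every library. The ratio of Kit to Kitl RPKM was 4.55 to 6.89, with a median of 5.87 over the 15 libraries. It spanned 4.55 to 5.99 in OPA1+/+ and 5.26 to 6.89 in OPA1+/- at 3 months, then 4.99 to 6.12 and 5.33 to 6.14 at 6 months, so all 4 groups overlapped.

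Of the 10 genes, 6 had enough counts to be tested among 15770 genes, namely Kitl, Kit, Mitf, Dct, Pmel and Rab32. Fold changes are log2 values of OPA1+/- minus OPA1+/+ with their standard error. Adjusted p-values are from edgeR's quasi-likelihood test with Benjamini-Hochberg adjustment over all tested genes. None of the 6 passed 0.05 at 3 months, where 0.00634% of all tested genes did. An unadjusted p under 0.05 was found for 2, Kitl and Rab32, and for 1424 of all 15770 genes. The DESeq2 Wald test called the same 2 and 43 of all genes there. Kitl and Rab32 were selected on such differences, so nothing is read from these counts. None of the 6 passed at 6 months, where 0.323% of all genes did, and DESeq2 called 0. None had an unadjusted p under 0.05 at that age, which 1614 of all genes had. In the mean of both ages 1 passed, Kitl, against 0.793% of all genes; since Kitl was listed for its difference, nothing is read from that call.

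Kitl (chromosome 10, base 99851492 to 99936278, plus strand of GRCm39, as for all gene positions that follow) was lower in OPA1+/- corneas at 3 months. The 4 OPA1+/+ libraries at 3 months were at 45.15, 45.22, 45.63 and 46.51 CPM, and the 4 OPA1+/- libraries at 33.66, 39.57, 35.87 and 33.86 CPM. Every OPA1+/- library lay below every OPA1+/+ library, as was the case in this direction for 1.95% of all tested genes. The OPA1+/+ libraries were close together (45.6 ± 0.624 CPM, SD, n = 4), while the OPA1+/- libraries spread more (35.7 ± 2.74 CPM, n = 4). The log2 fold change was -0.35 ± 0.07, a level 21.8% lower. In bulk RNA, fewer cells of a type and less RNA in each cell cannot be told apart.

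At 6 months the genotypes overlapped for Kitl and for the other 5 tested members, while 11.3% of all tested genes did not overlap. The 3 OPA1+/+ libraries were at 47.47, 40.98 and 37.47 CPM and the 4 OPA1+/- libraries at 36, 38.13, 41.95 and 39.96 CPM. OPA1+/+ replicate 1, which is 1 of the 2 libraries with high retina markers, was the highest of all 15, and the other 2 OPA1+/+ libraries lay within the OPA1+/- range. The log2 fold change was -0.11 ± 0.08, and without the 2 libraries with high retina markers it was -0.01. From 3 to 6 months the difference in Kitl was -0.12 ± 0.08 in OPA1+/+ and 0.13 ± 0.07 in OPA1+/-, each on the log2 scale and each with overlapping ages. The OPA1+/+ value was -0.22 without replicate 1 and -0.05 without replicate 3 of 6 months. Between ages in OPA1+/-, 6.04% of all tested genes did not overlap and none of the 6 members was among them. The genotype difference at 6 months minus that at 3 months was 0.25 ± 0.10.

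Rab32 (chromosome 10, base 10420746 to 10434009, minus strand) was set apart by 1 group, the OPA1+/+ corneas of 3 months. Those 4 libraries were at 12.91, 11.98, 13.92 and 15.42 CPM, and the OPA1+/- libraries of the same age at 20.32, 16.99, 18.56 and 19.7 CPM. At 6 months the OPA1+/+ libraries were at 16.73, 20.45 and 17.57 CPM and the OPA1+/- libraries at 20.33, 16.91, 21.48 and 18.77 CPM. The 4 OPA1+/+ libraries of 3 months lay below all of the other 11, which was the case for 0.165% of all tested genes, and the other 3 groups overlapped each other.

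As log2 fold changes, Rab32 in OPA1+/- was 0.48 ± 0.10 above OPA1+/+ at 3 months, a level 39.8% higher, and 0.09 ± 0.10 above at 6 months. At 3 months all OPA1+/- libraries lay above all OPA1+/+ libraries, as for 2.66% of all tested genes in that direction. Between ages it differed by 0.43 ± 0.11 in OPA1+/+, where the 6-month libraries lay above all 3-month libraries (4.44% of all genes in that direction), and by 0.03 ± 0.09 in OPA1+/-. These comparisons share the OPA1+/+ libraries of 3 months. The sum of 7 keratocyte markers in OPA1+/+ was 1756 to 2447 CPM at 3 months and 1514 to 1932 CPM at 6 months. All 7 had negative age changes there (median -0.27), though none passed edgeR's test and DESeq2 called 0. An unadjusted p under 0.05 was found for 2, and for 1602 of all 15770 genes. In OPA1+/- the sum was 2091 to 2488 CPM at 3 months and 1479 to 1930 CPM at 6 months. All 7 had negative age changes in OPA1+/- too (median -0.40), where Rab32 changed by 0.03. None of the 7 passed edgeR's test there, 5 had an unadjusted p under 0.05 (1427 of all genes did) and DESeq2 called 1. In the age change averaged over genotypes the median of the 7 was -0.32. None passed edgeR's test there, but 6 had an unadjusted p under 0.05 (1874 of all genes did). DESeq2 called 6 of the 7 lower, and 240 of all genes. Over the 15 libraries the Pearson r of log2 values of Rab32 with the keratocyte sum was -0.19. The part of the stroma in the age difference of Rab32 was not tested. The genotype difference at 6 months minus that at 3 months was -0.40 ± 0.14.

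**Figure D2:**
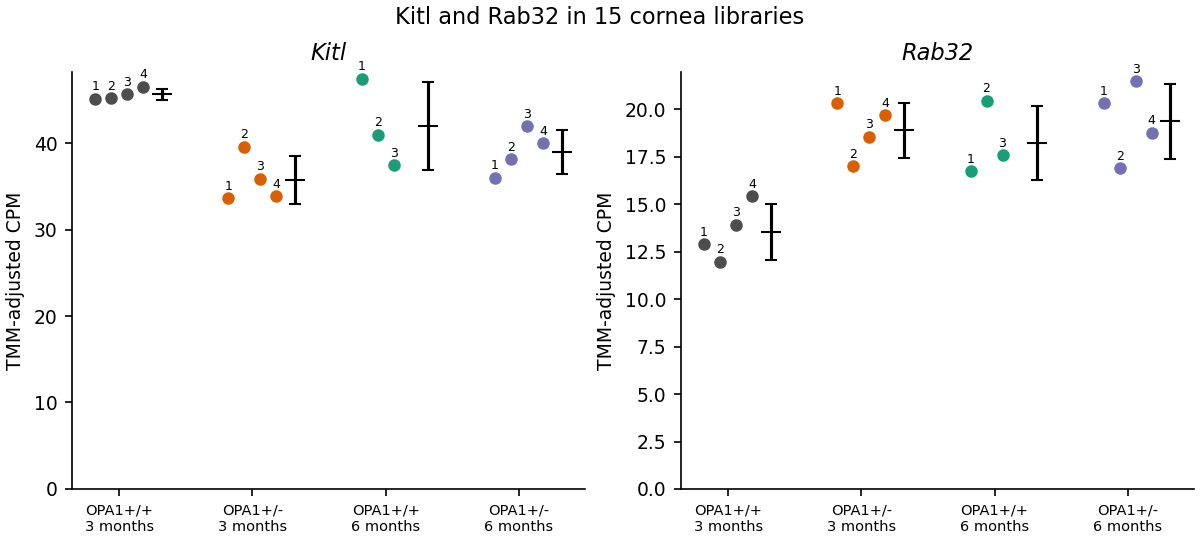
TMM-adjusted CPM of Kitl and Rab32 in each library, numbered by replicate, with the mean and SD of each group beside the points. At 3 months Kitl lies at 45.15 CPM and above in OPA1+/+ and at 39.57 CPM and below in OPA1+/-, and Rab32 is lowest in the 4 OPA1+/+ libraries of 3 months.

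Per length, Kitl exceeded Rab32 in each OPA1+/+ library of 3 months, at 7.639 to 7.868 RPKM against 5.12 to 6.592 RPKM. In each OPA1+/- library of 3 months the order was the reverse, at 5.695 to 6.694 RPKM for Kitl and 7.264 to 8.686 RPKM for Rab32. Rab32 was also the higher in each OPA1+/- library of 6 months, at 7.23 to 9.182 RPKM against 6.09 to 7.096 RPKM. In OPA1+/+ of 6 months Rab32 was the higher in replicates 2 and 3, and Kitl in replicate 1. Both genes were selected on their differences, so this order is a description. Both genes lie on chromosome 10 but far apart, and no other annotated gene overlaps either.

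Rab38, the closest relative of Rab32 and its partner in melanosome transport, did not show the same separation. Its 3-month means were 22.2 ± 2.50 CPM for OPA1+/+ and 23.1 ± 1.93 CPM for OPA1+/- (SD, n = 4 each), and its 6-month means 25.2 ± 7.04 CPM (n = 3) and 24.7 ± 0.636 CPM (n = 4). The log2 fold change was 0.06 ± 0.12 at 3 months (adjusted p = 0.93) and -0.03 ± 0.13 at 6 months (adjusted p = 0.972). OPA1+/+ replicate 3 at 6 months stood highest, at 33.27 CPM, and without it the 6-month value was 0.22. The difference between Rab32 and Rab38 was not tested. Per length Rab38, at 12.4 to 21.1 RPKM, was above Rab32 in all 15 libraries.

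Kit, the receptor (chromosome 5, base 75735576 to 75817382, plus strand), overlapped between genotypes at both ages. At 3 months the OPA1+/+ libraries were at 399.6, 408.3, 312.7 and 337.7 CPM and the OPA1+/- libraries at 349.6, 314, 340.6 and 327.3 CPM. The 6-month libraries were at 357.2, 378.4 and 343 CPM for OPA1+/+ and at 305.2, 320.7, 336.9 and 369.9 CPM for OPA1+/-. In OPA1+/+ at 3 months, replicates 1 and 2 were above all other libraries and replicates 3 and 4 among the rest. The log2 fold change was -0.13 ± 0.08 at 3 months (adjusted p = 0.659), -0.11 ± 0.08 at 6 months (adjusted p = 0.713) and -0.12 ± 0.06 in the mean of both ages (adjusted p = 0.407). Neither age comparison separated the libraries either, with log2 changes of -0.02 ± 0.08 in OPA1+/+ (adjusted p = 0.965) and 0.00 ± 0.08 in OPA1+/- (adjusted p = 0.999).

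Mitf (chromosome 6, base 97784013 to 97998310, plus strand) is the factor that drives the pigment enzymes in melanocytes. It rested on 30 to 61 counts in a library, or 2.43 to 3.92 CPM. Group means were 2.94 ± 0.276 CPM for OPA1+/+ and 2.90 ± 0.381 CPM for OPA1+/- at 3 months, and 3.28 ± 0.574 and 2.89 ± 0.334 CPM at 6 months (SD, n = 4, 4, 3 and 4). The highest library was OPA1+/+ replicate 1 at 6 months. The log2 fold change was -0.01 ± 0.16 at 3 months (adjusted p = 0.996) and -0.18 ± 0.17 at 6 months (adjusted p = 0.784). The 6-month value was -0.04 without OPA1+/+ replicate 1 and -0.29 without OPA1+/+ replicate 3.

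The promoter window of Dct, the enzyme dopachrome tautomerase (chromosome 14, base 118250202 to 118289656, minus strand), holds the M-box shown above. In OPA1+/+ corneas of 3 months Dct had 43, 76, 39 and 51 counts, and in OPA1+/- corneas of that age 73, 51, 62 and 54 counts. At 6 months there were 42, 61 and 45 counts in OPA1+/+ and 42, 43, 53 and 54 counts in OPA1+/-. All 4 groups overlapped, and after scaling to depth OPA1+/+ replicate 2 at 3 months was the highest of the 15 libraries at 5.52 CPM. The log2 fold change was -0.02 ± 0.20 at 3 months (adjusted p = 0.99) and -0.05 ± 0.22 at 6 months (adjusted p = 0.971). Left-out libraries turned the sign of both values (0.16 without OPA1+/+ replicate 2 of 3 months, 0.12 without OPA1+/+ replicate 2 of 6 months).

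Tyrp1, an enzyme of brown and black pigment (chromosome 4, base 80752360 to 80769956, plus strand), was counted at low numbers. Its counts were 5, 16, 6 and 4 in OPA1+/+ and 8, 6, 11 and 4 in OPA1+/- at 3 months, then 2, 6 and 5 in OPA1+/+ and 2, 2, 2 and 6 in OPA1+/- at 6 months. OPA1+/+ replicate 2 of 3 months held the most, the same library that was highest in Dct. Pooled over libraries, raw CPM was 0.618 (95% exact Poisson interval 0.420 to 0.877) in OPA1+/+ and 0.490 (0.328 to 0.704) in OPA1+/- at 3 months. At 6 months it was 0.329 (0.175 to 0.563) and 0.226 (0.117 to 0.394). These intervals, like those of Tyr and Mlana below, cover counting error only. They leave out the spread between libraries, which for Tyrp1 in OPA1+/+ of 3 months ran from 4 to 16 counts. The reads also carry no molecular identifiers.

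Tyr, the rate-limiting enzyme of melanin synthesis (chromosome 7, base 87073979 to 87142720, minus strand), was lower still. It had 1, 8, 2 and 3 counts in OPA1+/+ and 4, 3, 3 and 3 counts in OPA1+/- at 3 months, then 0, 1 and 1 in OPA1+/+ and 1, 3, 1 and 1 in OPA1+/- at 6 months. The 8 counts were again in OPA1+/+ replicate 2 of 3 months, and 13 of the 15 libraries were at or under the limit of 3 counts. Pooled raw CPM was 0.279 (95% exact Poisson interval 0.153 to 0.468) and 0.220 (0.117 to 0.376) at 3 months, against 0.0507 (0.00614 to 0.183) and 0.113 (0.0414 to 0.246) at 6 months, in each case OPA1+/+ before OPA1+/-.

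Pooled raw CPM of Tyrp1 and Tyr was lower at 6 than at 3 months in both genotypes, but neither difference passed a test. They were too low for the main test. In a fit without a filter on low counts (31669 genes) the age change averaged over genotypes had an adjusted p of 0.372 for Tyrp1, with a log2 fold change of -0.99 ± 0.39, and of 0.378 for Tyr. Dct and Pmel, tested with the main filter, had age changes of -0.17 ± 0.15 (adjusted p = 0.7) and -0.17 ± 0.15 (adjusted p = 0.723).

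Pmel, the protein of the fibrils on which melanin is laid down (chromosome 10, base 128540064 to 128556107, plus strand), spanned 0.756 to 1.41 RPKM. At 3 months the OPA1+/+ libraries had 1.94, 2.54, 3.23 and 2.04 CPM and the OPA1+/- libraries 1.99, 2.91, 2.43 and 1.92 CPM. The 6-month libraries had 1.73, 2.17 and 2.10 CPM for OPA1+/+ and 1.96, 1.85, 2.37 and 2.74 CPM for OPA1+/-. The groups overlapped, with log2 fold changes of -0.10 ± 0.21 at 3 months (adjusted p = 0.93) and 0.16 ± 0.23 at 6 months (adjusted p = 0.883). Of its 2292 exon bases, 105 (4.58%) also lie in exons of Dgka on the other strand, a gene with 59633 counts over the 15 libraries against 454 for Pmel. Counting was set to use strand, and how much of the Pmel count comes from Dgka was not tested.

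Mlana, a melanosomal membrane protein (chromosome 19, base 29675224 to 29686034, plus strand), had at most 3 counts in a library and none in 6 of 15. Slc45a2, a transporter of the melanosome (chromosome 15, base 11000807 to 11029319, plus strand), had at most 4 counts and none in 5 of 15. Both lie near the limit of detection, and no difference between groups could be detected at this depth. Pooled raw CPM of Mlana ranged from 0.0399 in OPA1+/+ at 3 months (95% exact Poisson interval 0.00483 to 0.144) to 0.127 in OPA1+/+ at 6 months (0.0411 to 0.296).

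**Figure D3:**
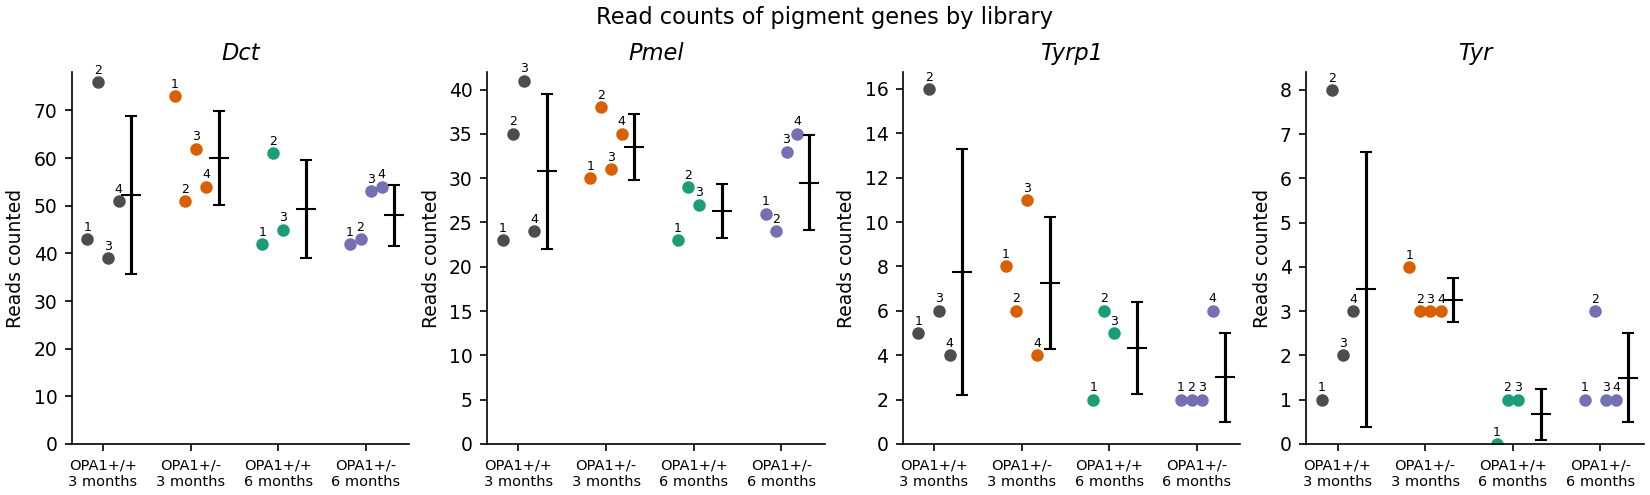
Reads counted for Dct, Pmel, Tyrp1 and Tyr in each library, numbered by replicate, with the mean and SD of each group; each panel has its own axis from 0, and counts are not scaled to depth. OPA1+/+ replicate 2 of 3 months holds 76 Dct, 16 Tyrp1 and 8 Tyr counts, the most of the 15 libraries for each of these 3 genes.

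Summed over Dct, Tyrp1, Tyr, Pmel, Mlana and Slc45a2, the pigment genes came to 5.42 to 9.94 CPM. The sums were 6.16, 9.94, 7.08 and 7.16 CPM in OPA1+/+ and 7.77, 7.65, 8.62 and 5.43 CPM in OPA1+/- at 3 months, then 5.43, 7.54 and 6.22 CPM in OPA1+/+ and 5.42, 5.77, 6.39 and 7.82 CPM in OPA1+/- at 6 months. All 4 groups overlapped. The 2 libraries with high retina markers were at 5.43 CPM each, at the low end of the range.

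**Figure D4:**
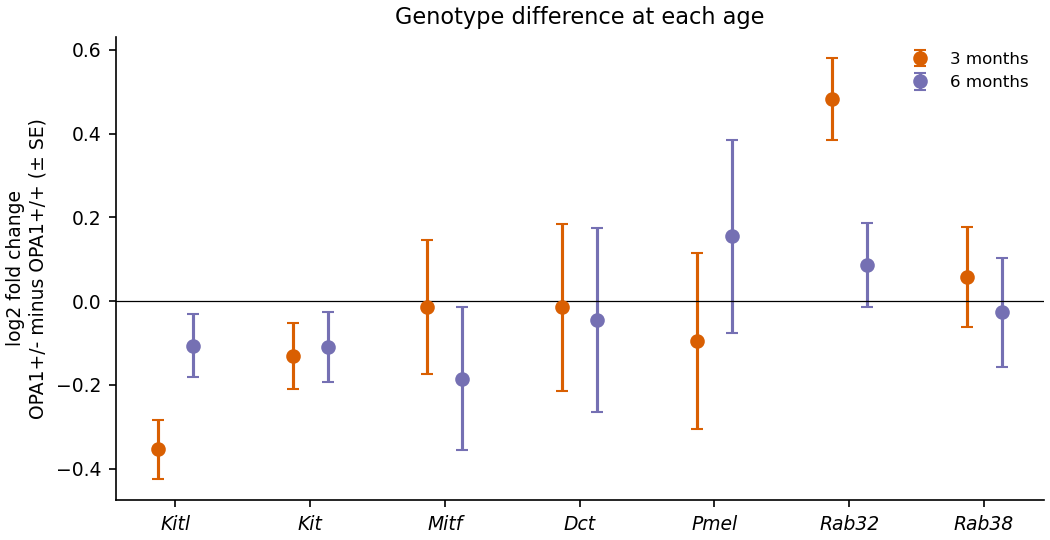
log2 fold change of OPA1+/- minus OPA1+/+ at 3 and 6 months for the 6 tested genes and Rab38, with bars of 1 standard error. Kitl at -0.35 and Rab32 at 0.48 at 3 months lie farthest from 0, while the pigment genes Dct and Pmel have wide bars that cross it.

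Of the markers of cells that could carry Kit or pigment RNA, most of those of mast cells, melanocytes and retinal pigment epithelium were low. Of 10 mast cell markers none was abundant enough to be tested, they summed to 0.256 to 1.36 CPM, and Fcer1a and Ms4a2, subunits of the IgE receptor, were at 0 in all 15 libraries. Among 8 further melanocyte markers Sox10, a transcription factor of neural crest cells, reached 0.765 CPM, and Oca2, Slc24a5, Gpr143 and Mc1r reached 0.332, 0.199, 0.156 and 0.156 CPM. The other 3 of that list, Mreg, Ednrb and Trpm1, were at 159 to 196, 72.0 to 93.8 and 11.96 to 24.4 CPM, and are also made by cells without pigment. The 10 markers of retinal pigment epithelium summed to 7.004 to 10.89 CPM, with Rpe65 at 0 in 3 libraries and at most at 0.538 CPM. The 6 markers of iris and ciliary body were not low as a sum, at 127.8 to 154.5 CPM. Otx1 made up most of it, at 123.5 to 148.6 CPM. The rest of that list were lower, with Myh11 reaching 6.025, Myoc 1.356, Des 1.013, Optc 0.787 and Zic1 0.705 CPM.

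Markers of epithelium that adjoins the cornea varied between libraries in the opposite sense to Rab32. The sum of 6 conjunctiva markers, of which the keratins Krt13 and Krt4 made up most, was 674, 606, 752 and 537 CPM in OPA1+/+ and 451, 715, 574 and 377 CPM in OPA1+/- at 3 months. The 6-month sums were 713, 401 and 439 CPM for OPA1+/+ and 385, 561, 367 and 454 CPM for OPA1+/-. The goblet cell mucins Muc5ac and Muc5b were at 0 in 6 and 14 libraries. Libraries low in these markers tended to be high in Rab32. Of the 4 OPA1+/+ libraries of 3 months, 3 were above the median of the 15 libraries, 537 CPM, with replicate 4 at it. OPA1+/- replicate 2 of 3 months (715 CPM) and OPA1+/+ replicate 1 of 6 months (713 CPM) were also high in these markers. Their Rab32, at 16.99 and 16.73 CPM, was above that of all 4 OPA1+/+ libraries of 3 months.

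None of the 4 testable conjunctiva markers passed the edgeR test at either age, none had an unadjusted p under 0.05 and DESeq2 called 0. All 4 had negative fold changes at both ages, with a median log2 fold change of -0.44 at 3 months and -0.69 at 6 months beside 0.00 for all genes. The part of this tissue in the Rab32 difference was not tested.

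The sum of 6 limbal epithelium markers, of which the keratin Krt15 and the transcription factor Trp63 made up most, was set beside Kitl. It was 1188, 1152, 1314 and 956 CPM in OPA1+/+ and 937, 1274, 1018 and 836 CPM in OPA1+/- at 3 months. The 6-month sums were 1346, 780 and 853 CPM for OPA1+/+ and 734, 1005, 811 and 930 CPM for OPA1+/-. OPA1+/+ replicate 1 of 6 months was highest of all 15 libraries in both this sum and Kitl. Neither pairing of gene and tissue was particular. Over the 15 libraries the Pearson r of log2 values was 0.57 for Kitl with the limbal sum and 0.58 with the conjunctiva sum. For Rab32 it was -0.72 with the limbal sum and -0.76 with the conjunctiva sum. With the sum of iris and ciliary body markers r was 0.49 for Kitl and -0.36 for Rab32. As deviations from group means, Kitl had r = 0.68 with the limbal, 0.60 with the conjunctiva and 0.71 with the iris and ciliary body sum. For Rab32 these were -0.72, -0.73 and -0.61. The part of limbal, iris or ciliary tissue in the Kitl difference was not tested.

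**Figure D5:**
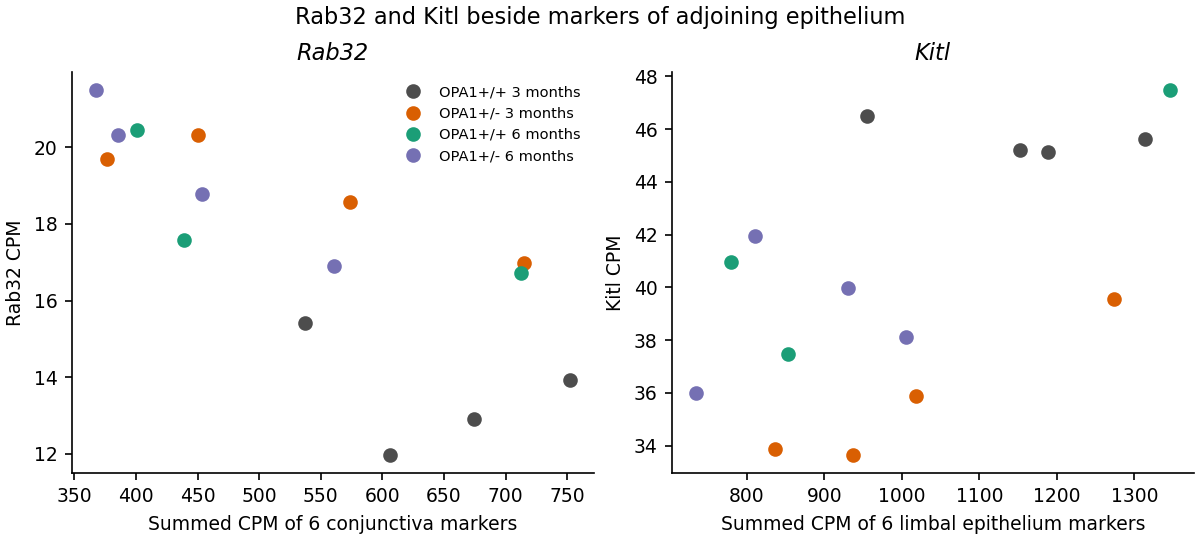
Left, Rab32 against the summed CPM of 6 conjunctiva markers; right, Kitl against the summed CPM of 6 limbal epithelium markers, one point per library, both axes in TMM-adjusted CPM and not starting at 0. Rab32 tends to be lower where the conjunctiva sum is higher, with the OPA1+/+ libraries of 3 months lowest at 11.98 to 15.42 CPM. OPA1+/+ replicate 1 of 6 months is highest in both the limbal sum and Kitl.

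Genes that act downstream of Kit or on its ligand were described as a list of 24, which held adaptors, kinases, phosphatases and the sheddase Adam17. All 24 were tested. At 3 months none passed edgeR's test and DESeq2 called 0. An unadjusted p under 0.05 was found for 1 of the 24 and for 1424 of all 15770 genes. The median log2 fold change was 0.05 beside 0.00 for all genes. At 6 months 0 of 24 were higher and 1 was lower, Adam17, where 0.323% of all genes passed. DESeq2 also called only Adam17 of the list, 6 of 24 had an unadjusted p under 0.05 (1614 of all 15770 genes did), and the list median was 0.02 beside 0.00.

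Adam17 is a membrane protease known to release Kit ligand, among many other proteins, from the cell surface. Its 6-month mean was 117.1 ± 3.09 CPM for OPA1+/+ (n = 3, range 113.6 to 119.4 CPM) and 94.8 ± 5.91 CPM for OPA1+/- (n = 4, range 87.8 to 101.7 CPM). The groups did not overlap, which was the case for 11.3% of all tested genes. At 6 months Adam17 was lower in OPA1+/- than in OPA1+/+ by 0.30 ± 0.06 on the log2 scale (edgeR adjusted p = 0.0261). The list that holds Adam17 was drawn up with earlier results of these data known. Its adjusted p-values are thus a description and not an independent test. The 3-month means were 100.6 ± 6.94 and 94.1 ± 4.05 CPM (n = 4 each), a log2 fold change of -0.10 ± 0.05 (adjusted p = 0.632). In the mean of both ages it was lower in OPA1+/- by 0.20 ± 0.04 (adjusted p = 0.0262). From 3 to 6 months it changed by 0.22 ± 0.06 in OPA1+/+ (edgeR adjusted p = 0.161) and by 0.01 ± 0.05 in OPA1+/- (0.975). Leaving out OPA1+/+ replicate 1 (adjusted p = 0.0863) or 2 (0.171) ended the 6-month call, as did the fits without OPA1+/- replicate 1 (0.0521), 2 (0.0854) or 3 (0.132), and without the 2 libraries with high retina markers (0.106). The call in the mean of both ages was lost without OPA1+/- replicate 1 of 3 months (0.0604), OPA1+/+ replicate 1 (0.0739) or 2 (0.0774) of 6 months, OPA1+/- replicate 3 of 6 months (0.0609) or those 2 libraries (0.0961). The genotype difference at 6 months minus that at 3 months was -0.21 ± 0.08 on the log2 scale and did not pass (edgeR adjusted p = 0.634).

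Of 14 relatives and regulators of Mitf, 8 were tested. No member passed edgeR's test in either genotype comparison, none had an unadjusted p under 0.05 and DESeq2 called 0. The list medians were -0.03 at 3 months and -0.02 at 6 months, beside 0.00 for all genes. Of 32 genes of melanosome formation and transport, 29 were tested, and none passed at either age, with DESeq2 calling 0. An unadjusted p under 0.05 was found for 4 at 3 months and 1 at 6 months. Over all 15770 genes these counts were 1424 and 1614. The list medians were -0.02 at 3 months and -0.05 at 6 months. Many of these transport genes also serve lysosome-related organelles of cells without pigment.

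The genes whose log2 CPM most resembled that of a listed gene over the 15 libraries were named among 12185 tested genes with a mean of at least 1 CPM. For Kitl these were Golph3l (Pearson r = 0.899), mt-Rnr2, the large mitochondrial ribosomal RNA (0.864), Zbtb16, a zinc finger transcription factor (0.857), Tiam2, a Rac exchange factor (0.845), and Zfp101 (0.844). For Rab32 they were Fjx1 (0.954), Plat, the tissue plasminogen activator (0.900), Snhg17 (0.882), Ldlrad3 (0.876) and Anxa6, a membrane-binding annexin (0.871). For the pigment sum they were Tbc1d22a (0.817), the kinase Fyn (0.733), Ctdsp2 (0.732), Cyb561 (0.727) and Ptgds (0.719). These are descriptions over libraries that share groups, depth and tissue makeup, picked as the highest of many, and carry no test. As deviations from group means, r was 0.583 (mt-Rnr2) to 0.821 (Zbtb16) for the genes named for Kitl. It was 0.67 (Anxa6) to 0.89 (Fjx1) for those of Rab32, and 0.683 (Ctdsp2) to 0.784 (Tbc1d22a) for those of the pigment sum.

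The 6 tested genes were also compared between ages and for a difference of the genotype effect. None passed edgeR's test for age in OPA1+/+ (0.0507% of all genes passed). An unadjusted p under 0.05 was found for 1, Rab32, and for 1602 of all 15770 genes. DESeq2 called 1 of the 6, also Rab32, and 117 of all genes. Rab32 was selected on its differences, so nothing is read from these counts. For age in OPA1+/- (0.0824%) none passed, 0 had an unadjusted p under 0.05 (1427 of all genes did) and DESeq2 called 0. For the interaction, which asks whether the genotype effect differed between ages, none passed here or among all genes (0%), and DESeq2 called 0. An unadjusted p under 0.05 was found for 2 of the 6, the selected Kitl and Rab32, and for 1090 of all genes. Nothing is read from that count.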

How the data were processed

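The authors deposited whole-number read counts per gene for 15 libraries. Per the labels' protocols, total RNA (RIN over 8.8) was ribo-depleted and sequenced as single reads from directional libraries. Per the file headers, reads were counted with featureCounts 2.0.1 at strand setting 2 on the GENCODE mouse release 28 annotation, which is on GRCm39; the submitters' processing notes name mm10 and DESeq2. Which aligner was used was not given in the sources used here. Symbols were matched to 52081 of 55357 identifiers (94.1%), and identifiers without one held 1.07% to 1.87% of counts.

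Groups came from the sample titles. After filterByExpr, 1 edgeR 4.0.16 quasi-likelihood model (R 4.3.3) with TMM factors and a mean for each group took in all 15 libraries, with 11 residual degrees of freedom. The standard error of a fold change is its size divided by the square root of F. Alternatives used DESeq2 1.42.0 and limma 3.58.1 voom, and others are named in the closing section. Replicate pairs differed beyond sampling noise (chi-square per gene 3.27 to 10.1). Likeness used log2(CPM + 0.5).

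The members and lists were chosen with earlier results of these data known. Named genes are the 10 members, Opa1, Rab38, up to 4 called genes with the smallest adjusted p of each list, and for Kitl, Rab32 and the pigment sum the 5 most correlated genes. Sequences came from RefSeq (GRCm38.p6) and were not joined to the GRCm39 positions of the files.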

Additional observations from a re-analysis of the deposited data

Results flagged for a closer look

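In a group of 4 libraries, a value was marked where its gap to the nearest other took up most of the group's range (Dixon's test at 95%). Groups with at most 3 counts of a gene in all were not marked, which left out Mlana in OPA1+/+ of 3 months (0, 0, 2 and 0 counts). Of 30 combinations of gene and group (10 genes in 3 groups of 4), 3 were marked. Chance marks about 1 in 20 of continuous values, a rate that does not hold for small whole-number counts with ties such as these. Tyrp1 was at 1.161 CPM (16 counts) in OPA1+/+ replicate 2 of 3 months, with the other 3 libraries at 0.3407 to 0.472 CPM. Tyrp1 was at 0.4692 CPM (6 counts) in OPA1+/- replicate 4 of 6 months, with the others at 0.1436 to 0.1537 CPM. Tyr was at 0.2306 CPM (3 counts) in OPA1+/- replicate 2 of 6 months, with the others at 0.07182 to 0.07821 CPM, which is 1 count each.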

How the results depend on the processing

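The number of the 10 genes called in the mean of both ages, 1 in the analysis reported, was 2 with the DESeq2 Wald test and 2 with no filter on low counts. It was 0 without the 2 libraries with high retina markers and 0 to 2 with each library left out in turn, 12 of 15 of which moved it. At 3 months the count of 0 became 2 with DESeq2 and 2 with no filter, and was 0 to 1 with libraries left out. For age in OPA1+/+ it became 1 with DESeq2 and 1 with no filter, and was 0 to 1 with libraries left out. Each call, here and in what follows, was of Kitl or Rab32. Both were selected on such differences, so nothing is read from whether a call was held, gained or lost. The Kitl call in the mean of both ages held without OPA1+/+ replicate 3 or 4 or OPA1+/- replicate 2 of 3 months, or without OPA1+/+ replicate 3 of 6 months, and was lost without any 1 of the other 11. Rab32 gained a call at 3 months without OPA1+/+ replicate 4 of that age, and Kitl at 3 months and Rab32 for age without OPA1+/+ replicate 1 of 6 months. The counts for the other comparisons did not move.

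Same-numbered libraries did not deviate together (r -0.16 to 0.10 over 7 pairs). The labels do not say whether they share more than a number, and these correlations cannot settle it. With the replicate block 0 of the 10 genes passed in the mean of both ages, and 90 genes in place of 125.

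Directions turned only for values near 0. The age change of Rab32 in OPA1+/- ranged from -0.0157 to 0.0973 with libraries left out. That of Kitl averaged over genotypes, 0.00438 in the analysis reported, ranged from -0.0439 to 0.0419. With libraries left out, Dct was at -0.15 to 0.16 at 3 months and -0.15 to 0.12 at 6 months, Mitf at -0.10 to 0.0518, Pmel at -0.23 to 0.0589 and Rab38 at -0.000501 to 0.12 at 3 months, and Rab38 at -0.16 to 0.22 at 6 months. Dct at 3 months was 0.12 without the 2 retina libraries, and Rab38 at 6 months 0.0233 with limma voom. Without turning, Kit ranged from -0.21 to -0.08 at 3 months, and Kit from -0.17 to -0.07, Mitf from -0.29 to -0.04, Pmel from 0.04 to 0.24 and Rab32 from 0.03 to 0.18 at 6 months. A fit of only the groups compared was not possible for averaged comparisons and the interaction. Depth limits Tyrp1, Tyr, Mlana and Slc45a2, which rest on 0 to 16 counts per library.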
